A study of Oryctolagus cuniculus with 8 samples.

Results

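The genes described here are 10 genes of melanin synthesis and of the melanosome, the organelle in which melanin is made and stored: TYR, TYRP1, DCT, PMEL, MLANA, GPNMB, OCA2, SLC45A2, RAB27A and MITF. They were chosen by gene symbol, and all 10 were found among the 25666 rows of the expression table. Of these, 7 reached 1 FPKM in at least 2 of the 8 libraries and were tested together with all other protein-coding genes above that level, 12204 in all. FPKM is the number of sequenced fragments per kilobase of gene, scaled to the depth of the library, so levels of different genes can be compared on this scale. The remaining 3 members, OCA2, SLC45A2 and GPNMB, reached 1 FPKM in 1 retina only, and their values are given beside those of the others. Each of the 7 tested members was at 1 FPKM or more in at least 3 retinas of the enriched diets, so none of them was tested only because it was high in the ND retinas.

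The retinas came from male, wild-type Chinchilla rabbits, a pigmented breed, that were 12 to 16 weeks old at the start and were fed for 6 months. ND retinas came from rabbits on standard chow. HFD chow had 10% lard and 0.5% cholesterol added, HSD chow had 40% sucrose added, and HFSD chow had 35% sucrose on top of the same lard and cholesterol as HFD. Each diet had 2 retinas, and the labels do not say whether both came from 1 rabbit, so the p-values below measure the spread between these retinas only. The sources used here do not say whether the pigment epithelium was kept with the dissected retina.

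In the eye, melanin is made by the retinal pigment epithelium, the single layer of cells behind the photoreceptors, and by melanocytes of the choroid, the vascular layer behind it. The neural retina itself makes no melanin. Pigment cells build a fibrous scaffold inside the early melanosome, and then enzymes of the tyrosinase family turn tyrosine into melanin that is laid down on it. The pigment epithelium also regenerates the light-sensitive retinoid of the photoreceptors and engulfs the tips of their outer segments.

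All 8 libraries carried the RNA of a retina. SAG, the arrestin of photoreceptors, was at 2826 to 3820 FPKM, and RPE65, an enzyme of the retinoid cycle that marks the pigment epithelium, was above 10 FPKM in every library. The libraries held between 15223355 and 22293223 fragments over all genes, recovered from the steps of the FPKM values. Replicate 2 of HSD stood apart in 7 skeletal muscle genes, whose summed level was 427 FPKM there and 1.43 to 3.46 FPKM elsewhere. Replicate 1 of ND stood apart from replicate 2 of ND in genes of other cell types, with VWF of blood vessels at 3.77 against 0.00648 FPKM and SOX10, a regulator of the melanocyte and glial lineages, at 4.82 against 0.664 FPKM.

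Compared with ND retinas, 6 members were lower in the means of all 3 enriched diets by the fold rule of the study, which is the ratio of mean FPKM plus 1 below 0.65. These were TYRP1, DCT, PMEL, OCA2, SLC45A2 and RAB27A, and 58 of 16404 protein-coding genes above 0 did the same (0.354%). By diet, 6 of 10 members were below this limit in HFD (0.809% of all protein-coding genes), 6 in HSD (2.42%) and 7 in HFSD (2.4%), where TYR was added. No member was above the upper limit of 1.54 in any diet (0.949%, 1.53% and 1.03% of all genes in the same order). Without replicate 2 of ND the counts were 4, 4 and 4. The 3 comparisons share the same ND retinas, so they are not independent of each other.

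Seen retina by retina, 5 members were lower in all 6 retinas of the enriched diets than in both ND retinas, namely TYRP1, DCT, PMEL, OCA2 and SLC45A2. The same order was found for 457 of 16404 genes (2.79%). For each diet alone, both retinas lay below both ND retinas for 5 members in HFD (13% of the 16404 genes), 7 in HSD (17.5%) and 6 in HFSD (18.7%). The summed level of the 10 members was 57.6 and 74.7 FPKM (ND), 34.3 and 20.6 FPKM (HFD), 22.6 and 16.0 FPKM (HSD) and 27.9 and 14.4 FPKM (HFSD). Every retina of an enriched diet had a lower sum than either ND retina. In bulk RNA such as this, fewer cells of a type cannot be told apart from less RNA per cell.

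**Figure D1:**
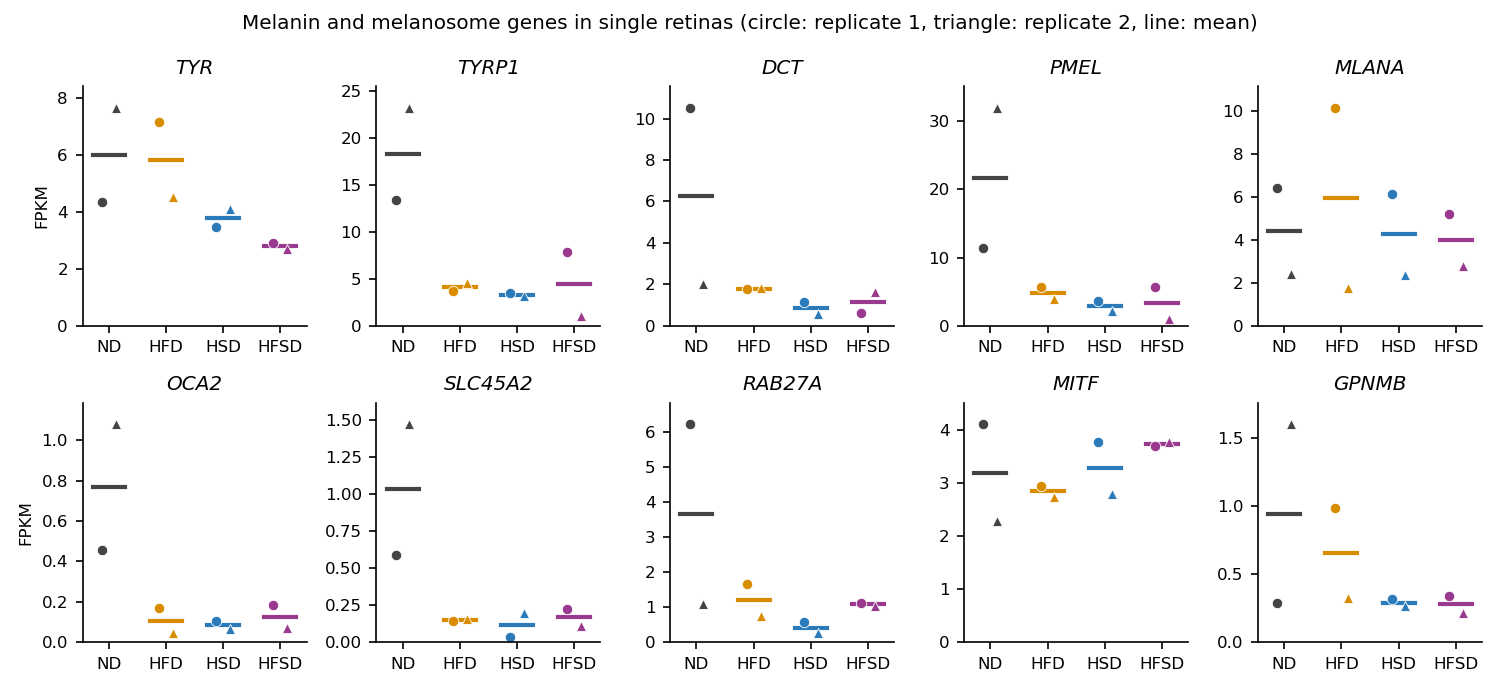
FPKM of the 10 genes in each retina by diet, with the replicates as circles (1) and triangles (2) and the mean of each diet as a line; each gene has its own vertical axis from 0. TYRP1, PMEL, OCA2 and SLC45A2 are high in both ND retinas, DCT and RAB27A mainly in ND replicate 1, and MLANA and MITF overlap with ND in every diet.

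The differences were then tested with limma on log2(FPKM + 1), with p-values adjusted over all 12204 genes by the Benjamini-Hochberg method. No member passed an adjusted p of 0.05 in any comparison. Few other genes did: in HFD, 0 genes (0%) were lower and 1 (0.00819%) higher, in HSD 4 (0.0328%) were lower and 3 (0.0246%) higher, and in HFSD 1 (0.00819%) was lower and 1 (0.00819%) higher. Before adjustment, 2 of the 7 tested members were lower at p below 0.05 with HFD (2.51% of all genes tested), 4 with HSD (4.51%) and 4 with HFSD (4.37%). None was higher (1.8%, 2.7% and 3.7%). With voom, a method for counts, on the recovered fragments, these numbers were 2, 2 and 3, also with 0 after adjustment. Without replicate 2 of HSD, the library with muscle RNA, 2 members were lower before adjustment in HSD, and without either HFD retina 1 member was lower in HFD. The 2 members in HFD were PMEL and TYRP1, and without replicate 2 of ND they were DCT and RAB27A instead. For the 3 enriched diets together against ND, 4 members were lower before adjustment (3.08%) and 0 higher (1.93%), with 0 either way after it (0.00819% lower and 0.0164% higher).

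The median log2 fold change of the 7 tested members was −0.86 (HFD), −1.47 (HSD) and −0.90 (HFSD), with medians over all genes tested of 0.0063, −0.0018 and −0.0040. With the 3 low members included, the medians were −0.72, −0.76 and −0.80. Removing replicate 1 of ND brought the median of the 7 to −0.11 in HFD and −0.71 in HSD, and in HFSD it was −0.54 without replicate 1 of ND and −1.75 without replicate 2. Without replicate 2 of HSD the median in HSD was −1.31, with TYRP1 at −2.05 and PMEL at −2.14. RAB27A was the gene at the median in each diet. By the ratio of FPKM its ND retinas differed most among the members, 5.64-fold against 5.60-fold for GPNMB. On the log2(FPKM + 1) scale those of DCT differed more. With 1 or the other ND retina left out, DCT in HFD was at −2.04 or −0.11 and RAB27A at −1.75 or 0.03.

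**Figure D2:**
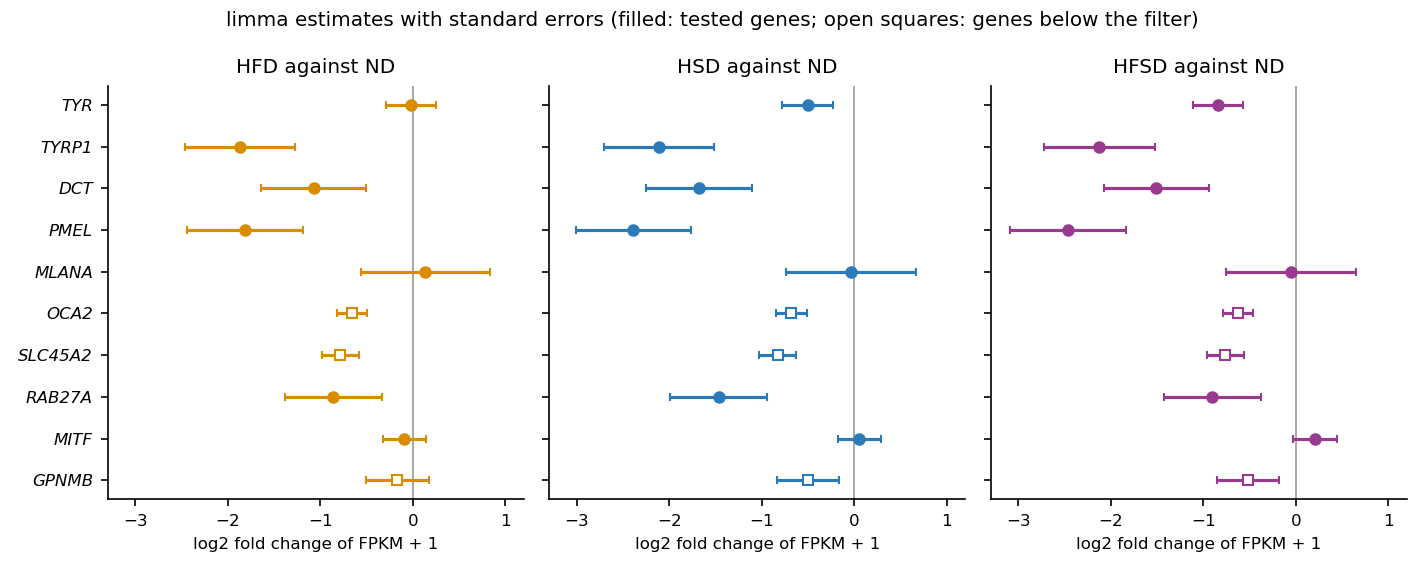
Log2 fold change of FPKM + 1 against ND in the limma fit for each gene (points) with its standard error (bars), in HFD, HSD and HFSD; open squares are the 3 genes below the expression filter, from a fit without the filter. TYRP1 and PMEL have the lowest estimates in each diet, from −1.81 to −2.46, and MLANA and MITF lie within 1 standard error of 0.

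The tyrosinase family comprises TYR, TYRP1 and DCT. TYR is the enzyme that oxidises tyrosine and sets the pace of melanin synthesis, TYRP1 acts in its later steps towards brown-black eumelanin, and DCT converts the intermediate dopachrome. Their values varied with diet in unlike ways.

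TYRP1 was at 13.4 and 23.2 FPKM (ND), 3.71 and 4.52 FPKM (HFD), 3.51 and 3.13 FPKM (HSD) and 7.86 and 1.06 FPKM (HFSD). These values rest on 596 and 935 fragments in ND and on 38 to 408 fragments in the other retinas. All 6 retinas of the enriched diets were below both ND retinas, and the lower ND retina was 1.70 times the highest of them, replicate 1 of HFSD. The means were 18.3±6.93 FPKM (s.d., n=2) in ND, 4.12±0.571 FPKM with HFD, 3.32±0.267 FPKM with HSD and 4.46±4.81 FPKM with HFSD, lower than in ND by 77.5%, 81.8% and 75.6%. The log2 fold changes were −1.87 (HFD), −2.11 (HSD) and −2.13 (HFSD), each with a standard error of 0.598 (limma, adjusted p=0.998, 0.452 and 0.457). Over the 3 diets together TYRP1 was at −2.04 with a standard error of 0.489 (limma, adjusted p=0.565). The HFSD retinas differed 7.44-fold from each other, and the HFSD estimate was −3.18 without replicate 1 of HFSD and −1.07 without replicate 2. The joint estimate was −1.68 without replicate 2 of HFSD. Without replicate 1 it was −2.39 with a standard error of 0.224 (limma, adjusted p=0.0454), which was the lowest of 13 alternatives, over which the adjusted p ranged from 0.0454 to 0.825.

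DCT was at 10.5 FPKM in ND replicate 1 and 2.01 FPKM in ND replicate 2. In the other diets it was at 1.79 and 1.82 FPKM (HFD), 1.13 and 0.591 FPKM (HSD), and 0.615 and 1.66 FPKM (HFSD). As for TYRP1, both ND retinas were above all others, but the lower ND retina was only 1.11 times the highest HFD retina, with 56 and 52 fragments behind those values (95% Poisson intervals of 42.3 to 72.7 and 38.8 to 68.2, for counting error only). The log2 fold changes were −1.07 (HFD), −1.68 (HSD) and −1.51 (HFSD), with a standard error of 0.571 (limma, adjusted p=0.998, 0.574 and 0.587). They rested on replicate 1 of ND, without which they were −0.11, −0.71 and −0.54.

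TYR was at 4.35 and 7.65 FPKM (ND), 7.14 and 4.53 FPKM (HFD), 3.48 and 4.12 FPKM (HSD) and 2.92 and 2.68 FPKM (HFSD). The HFD retinas lay inside the range of the ND retinas, and the HSD and HFSD retinas lay below it. TYR was lower than in ND by 36.7% in HSD and 53.4% in HFSD on the means. Its log2 fold changes were −0.02 (HFD), −0.51 (HSD) and −0.84 (HFSD), with a standard error of 0.271 (limma, adjusted p=0.998, 0.762 and 0.529). Without replicate 2 of ND they were 0.33, −0.16 and −0.49, so the sign changed in HFD, and TYR in HFSD no longer passed before adjustment. It did not pass without replicate 2 of HFSD either.

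With all retinas in, TYR and TYRP1 thus differed most in HFD. There, where the TYRP1 mean was lower than in ND by 77.5%, the TYR mean was lower by 2.82%. Without replicate 1 of HFSD the log2 fold changes in HFSD were −3.18 for TYRP1 and −0.89 for TYR. These lay further apart than those in HFD, −1.87 and −0.02. No test compared the fold changes of these genes.

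PMEL and MLANA belong to the scaffold of the early melanosome. PMEL forms the fibrils on which melanin is deposited, MLANA is a membrane protein that binds PMEL and takes part in its processing, and GPNMB is a relative of PMEL that is also made by macrophages and microglia.

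PMEL was at 11.3 and 31.9 FPKM (ND), 5.65 and 3.94 FPKM (HFD), 3.58 and 2.23 FPKM (HSD) and 5.73 and 0.983 FPKM (HFSD). By its mean it was the most abundant member in ND, although TYRP1 was above it in replicate 1, and its ND replicate 2 had 1202 fragments against 33 in HFSD replicate 2. The 6 retinas of the enriched diets were all below both ND retinas, the lower of which was 1.98 times the highest of them. The means were 21.6±14.5 FPKM (s.d., n=2) in ND, 4.79±1.21 FPKM with HFD, 2.91±0.950 FPKM with HSD and 3.36±3.36 FPKM with HFSD. PMEL had log2 fold changes of −1.81 (HFD), −2.39 (HSD) and −2.46 (HFSD), with a standard error of 0.625 (limma, adjusted p=0.998, 0.438 and 0.393). Over the 3 diets together the estimate was −2.22 with a standard error of 0.510 (limma, adjusted p=0.534). Without replicate 2 of ND it was −1.51, and without replicate 1 it was −2.93. The HFD estimate was −1.11 without replicate 2 of ND, and the HFSD estimate was −1.58 without replicate 2 of HFSD.

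PMEL and TYRP1 followed each other over the retinas, with a Pearson r of 0.96 over all 8 and of 0.89 over the 6 retinas of the enriched diets. In HFSD both were high in replicate 1 and low in replicate 2. The retinas share library and tissue composition, and these values are a description.

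MLANA was at 6.41 and 2.42 FPKM (ND), 10.1 and 1.75 FPKM (HFD), 6.14 and 2.36 FPKM (HSD) and 5.21 and 2.79 FPKM (HFSD). Each diet had 1 retina between 5.21 and 10.1 FPKM and 1 between 1.75 and 2.79 FPKM, so the diets overlapped throughout. The higher retina was replicate 1 in all 4 diets, although the replicate numbers did not pair the retinas over all genes. RAB27A, the epithelial markers RPE65 and TTR and the mean z-score of the tested members, given below, were also higher in replicate 1 of each diet. PMEL and TYRP1 were not, as ND replicate 2 was the higher there. The higher retina had from 1.87 to 5.80 times the level of the other within a diet. The fold changes were 0.14, −0.04 and −0.05 on the log2 scale with a standard error of 0.701 (limma, adjusted p=0.998, 0.993 and 0.990). The 95% intervals ran from −1.50 to 1.78 in HFD, from −1.68 to 1.60 in HSD and from −1.69 to 1.59 in HFSD, so the data do not separate differences of up to these bounds from 0.

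GPNMB was at 0.286 and 1.60 FPKM (ND), 0.990 and 0.328 FPKM (HFD), 0.317 and 0.266 FPKM (HSD) and 0.342 and 0.215 FPKM (HFSD). Its ND replicate 2 was the highest and ND replicate 1 was among the low values, so every diet overlapped with ND. The fit without the filter gave −0.17, −0.50 and −0.52 with a standard error of 0.340 (limma, adjusted p=1, 0.788 and 0.785). Because macrophages and microglia also make GPNMB, their markers are set beside it. The summed level of 11 of them was 32.5 and 19.1 FPKM (ND), 36.1 and 29.1 FPKM (HFD), 13.9 and 13.5 FPKM (HSD) and 13.2 and 19.5 FPKM (HFSD), and the part of these cells in the GPNMB level was not tested. Before adjustment, C1QC (−0.61), CD74 (−1.16) and CSF1R (−0.71) were lower in HSD (limma, adjusted p=0.675, 0.362 and 0.559). In HFSD, C1QB (−0.54), C1QC (−0.87) and CSF1R (−0.56) were lower before adjustment (limma, adjusted p=0.598, 0.440 and 0.610), and CD74 was higher in HFD (0.70, limma, adjusted p=0.998).

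OCA2 and SLC45A2 are transport proteins of the melanosome membrane that keep its interior at the pH that tyrosinase needs. Both were expressed at low levels, and both were higher in each ND retina than in any other retina. OCA2 was at 0.459 and 1.08 FPKM (ND), 0.169 and 0.0462 FPKM (HFD), 0.107 and 0.0651 FPKM (HSD) and 0.185 and 0.0712 FPKM (HFSD). The ND values rest on 32 and 68 fragments and the others on 3 to 15. SLC45A2 was at 0.592 and 1.47 FPKM (ND), 0.145 and 0.159 FPKM (HFD), 0.0368 and 0.202 FPKM (HSD) and 0.229 and 0.110 FPKM (HFSD). Its fragments numbered 20 and 45 in ND and 1 to 9 in the other retinas, and the single fragment in HSD replicate 1 has a 95% Poisson interval of 0.0253 to 5.57.

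The gap between the groups was wider for these low genes than for PMEL or TYRP1 in proportion, with the lower ND retina at 2.48 times the highest other retina for OCA2 and 2.59 times for SLC45A2. On the means, OCA2 was lower by 86.0% (HFD), 88.8% (HSD) and 83.3% (HFSD), and SLC45A2 by 85.3%, 88.5% and 83.6%. The pseudocount of 1 compresses such low values, and the log2 fold changes from the fit without the filter were −0.66, −0.68 and −0.63 for OCA2 with a standard error of 0.165 (limma, adjusted p=0.950, 0.430 and 0.523). For SLC45A2 they were −0.78, −0.83 and −0.76 with a standard error of 0.201 (limma, adjusted p=0.950, 0.430 and 0.523).

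RAB27A is a small GTPase that links melanosomes to the cytoskeleton and so places them within the cell, and it serves other secretory organelles too. It was at 6.22 and 1.10 FPKM (ND), 1.65 and 0.741 FPKM (HFD), 0.571 and 0.261 FPKM (HSD) and 1.12 and 1.05 FPKM (HFSD). Replicate 1 of ND stood 5.64-fold above replicate 2, which lay inside the range of the HFD and HFSD retinas, and only the HSD retinas were both below both ND retinas. The fragments numbered 81 and 13 in ND and 3 to 22 in the other diets. The log2 fold changes were −0.86 (HFD), −1.47 (HSD) and −0.90 (HFSD), with a standard error of 0.527 (limma, adjusted p=0.998, 0.599 and 0.695). Without replicate 1 of ND they were 0.03, −0.58 and −0.01.

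DCT and RAB27A were higher in ND replicate 1 than in ND replicate 2, with MLANA and MITF also higher there, whereas PMEL, TYRP1, TYR, OCA2, SLC45A2 and GPNMB were higher in ND replicate 2. So 6 of the 10 members were higher in replicate 2, as were 6292 of the 12204 genes tested. Melanocytes make melanin as the pigment epithelium does, so their markers are set beside the members. The melanocyte lineage markers SOX10 and EDNRB, an endothelin receptor, were at 4.82 and 15.3 FPKM in ND replicate 1 and at 0.664 and 5.91 FPKM in replicate 2. PAX3, another marker of that lineage, was at 0 FPKM in replicate 1 of ND and 0.0195 in replicate 2. Over the whole list of 4 markers found, the summed level was 27.1 and 13.0 FPKM (ND), 15.6 and 15.7 FPKM (HFD), 13.7 and 9.33 FPKM (HSD) and 14.3 and 16.0 FPKM (HFSD). The summed level of 9 markers of choroid stroma and vessels was 51.4 FPKM in each ND retina and 39.9 to 96.8 FPKM in the others, so it did not separate ND from the enriched diets. The single markers did not agree between the ND retinas as the sums did. OGN was at 19.2 and 33.5 FPKM in ND replicates 1 and 2, and LUM at 19.3 and 14.6 FPKM. COL1A1, COL1A2, COL3A1, DCN, PDGFRA, PLVAP and VWF were, like LUM, higher in replicate 1. Of this list DCN, a matrix proteoglycan, was higher before adjustment in HSD (1.78, limma, adjusted p=0.690), where replicate 2, the library with muscle RNA, was at 16.2 FPKM and replicate 1 at 1.77 FPKM. The part of these cells in the DCT and RAB27A levels was not tested.

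MITF is the transcription factor that activates TYR, TYRP1, DCT and PMEL in pigment cells. It was at 4.11 and 2.29 FPKM (ND), 2.95 and 2.74 FPKM (HFD), 3.77 and 2.79 FPKM (HSD) and 3.69 and 3.77 FPKM (HFSD). The 6 retinas of the enriched diets all lay between the ND retinas. The log2 fold changes were −0.09, 0.05 and 0.21 with a standard error of 0.235 (limma, adjusted p=0.998, 0.972 and 0.852), and the sign changed in each diet when 1 of the ND retinas was left out. The 95% interval of the joint estimate was −0.39 to 0.50. The gene-level value does not separate MITF transcripts from different promoters. Across the retinas MITF and TYR ran in opposite order, with a Pearson r of −0.73 over all 8 and −0.72 over the 6 of the enriched diets, given as a description.

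The order of the members by level differed between diets. In ND, PMEL and TYRP1 came first with overlapping ranges and were separate from the next, DCT, which overlapped in turn with TYR, MLANA, RAB27A and MITF as neighbours. In HFD and HSD, MLANA and TYR came first by their means, and in HFSD the order began with TYRP1, MLANA and MITF, each overlapping with the next. SLC45A2, GPNMB and OCA2 were the lowest 3 in every diet. PMEL and TYRP1 together made up 42.9% and 73.7% of the summed member level in the ND retinas and 14.2% to 48.7% in the others.

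The enriched diets were next compared with each other, without ND. No member passed the adjusted threshold in HSD against HFD, where 5 of all genes were lower (0.041%) and none higher (0%), in HFSD against HFD, where 1 was lower (0.00819%) and none higher (0%), or in HFSD against HSD, where none passed (0%). Before adjustment 0 members passed for HSD against HFD (6.58% of all genes lower, 6.94% higher), and 1 of the 7, TYR, was lower for HFSD against HFD (7.17% lower, 7.96% higher). TYR differed there by −0.82 on the log2 scale with a standard error of 0.271 (limma, adjusted p=0.263). Its HFSD retinas, at 2.92 and 2.68 FPKM, were both below the HFD retinas, at 7.14 and 4.53 FPKM. The difference was −0.54 without replicate 1 of HFD and −0.78 without replicate 2 of HFSD, and in neither case did it pass before adjustment. Without replicate 1 of HFSD, PMEL and TYRP1 were lower before adjustment together with TYR, and without replicate 2 of HFSD TYRP1 was higher. For HSD against HFD, TYR was lower before adjustment without replicate 2 of HFD. For HFSD against HSD no member passed before adjustment (1.52% lower, 1.22% higher). TYRP1 differed by −0.02 (95% interval −1.42 to 1.38) and PMEL by −0.07 (−1.54 to 1.39), so differences of up to these bounds in either direction could not be told from 0. These values average unlike HFSD retinas. TYRP1 was at −1.07 without replicate 1 of HFSD and at 1.04 without replicate 2, past the unadjusted limit both times, and PMEL was at −0.96 and 0.81, short of it.

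TYR and DCT also had all 4 retinas of the diets with sucrose below all 4 retinas without it, an order noticed after the values were seen. In DCT the gap was small, from 1.66 FPKM in HFSD replicate 2 to 1.79 FPKM in HFD replicate 1. The same order held for 791 of the 12204 genes tested (6.48%).

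The 4 diets form a crossed design of fat and sucrose, although the added sucrose was 40% in HSD and 35% in HFSD. The interaction, which is the HFSD difference from ND less those of HFD and HSD, was 1.85 for TYRP1 with a standard error of 0.846 (limma, adjusted p=0.999) and 1.74 for PMEL with a standard error of 0.884 (limma, adjusted p=0.999). Positive values mean that the combined diet was less far below ND than the sum of its parts. A gene that is high in ND and alike in the 3 enriched diets also has a positive value. The interaction is therefore not a result separate from the differences from ND. Both estimates depended on the HFSD retinas. Without replicate 1 of HFSD they were 0.80 for TYRP1 and 0.86 for PMEL, and without replicate 2 they were 2.91 and 2.62, where both passed before adjustment. For PMEL the value was 1.03 without replicate 2 of ND and 2.45 without replicate 1, where it also passed before adjustment. Without replicate 2 of ND, DCT and RAB27A passed. With all retinas no member passed before adjustment (1.97% of all genes were lower and 1.77% higher), and after adjustment 1 gene passed (0.00819%).

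Other genes of the pigment pathway were taken from 4 lists that together held 62 genes, of which 47 carried a symbol in the table and 40 were tested. Over these 40 the median log2 fold change was −0.02 (HFD), −0.04 (HSD) and −0.02 (HFSD), and none passed the adjusted threshold. At an unadjusted p below 0.05, 1, 5 and 2 were lower, against 2.51%, 4.51% and 4.37% of all genes tested, and 0, 2 and 0 were higher, against 1.8%, 2.7% and 3.7%. The medians of these lists, which cover the melanosome's maturation, its transport, its sorting complexes and its regulators, were near that of all genes, while the 5 genes lower in HSD made up 12.5% of the 40.

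In the list of maturation and pigment channels, BACE2, a protease that cuts PMEL into its fibril-forming fragment, was the one gene lower before adjustment in each diet. It was at 3.53 and 3.09 FPKM (ND), 2.05 and 1.50 FPKM (HFD), 0.675 and 0.969 FPKM (HSD) and 1.50 and 1.73 FPKM (HFSD). Both ND retinas were above the other 6, and the log2 fold changes were −0.64, −1.25 and −0.72 with a standard error of 0.197 (limma, adjusted p=0.998, 0.151 and 0.436). CD63, a membrane protein of early melanosomes and many other vesicles, was also lower before adjustment in HSD (−0.42, limma, adjusted p=0.690), and SLC7A11, the cystine carrier, was higher (0.58, limma, adjusted p=0.675). SLC24A5, an ion exchanger of the melanosome pathway, was at 5.22 to 9.39 FPKM over all retinas with overlapping diets.

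In the list of melanosome transport, MYO5A, the actin motor that carries melanosomes, was higher before adjustment in HSD (0.46, limma, adjusted p=0.690). MYRIP and MYO7A, which work with RAB27A in the pigment epithelium, were at 25.8 to 37.2 and 19.4 to 35.9 FPKM. MLPH, the partner of RAB27A in melanocytes, was below 1 FPKM in every retina. In the list of sorting complexes for lysosome-related organelles, HPS1 was lower before adjustment in HFSD (−0.37, limma, adjusted p=0.588), and no other of its 12 genes passed that limit against ND. In the list of regulators, EDNRB (−1.47), SOX10 (−1.25) and TRPM1 (−0.54), a channel of melanocytes and ON bipolar cells, were lower before adjustment in HSD (limma, adjusted p=0.438, 0.690 and 0.479).

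In the comparisons without ND, none of the 40 passed the adjusted threshold either. For HSD against HFD, BACE2 (−0.61), CD63 (−0.51), EDNRB (−1.07), SOX10 (−1.31) and TRPM1 (−0.49) were lower before adjustment and MYO5A (0.83), ATRN (0.29) and CREB1 (0.38) higher. These 5 and 3 genes made up 12.5% and 7.5% of the 40, against 6.58% and 6.94% of all genes. For HFSD against HFD, CD63 (−0.42), HPS1 (−0.43) and SNAPIN (−0.37) were lower and MYO5A (0.77), ATRN (0.32) and KITLG (0.52) higher before adjustment, 7.5% each way against 7.17% and 7.96%. For HFSD against HSD, POMC (−0.57) was lower and BACE2 (0.53) and EDNRB (0.96) were higher before adjustment, 2.5% and 5% of the 40 against 1.52% and 1.22%. The interaction was above 0 before adjustment for BACE2 (1.17), EDNRB (1.36) and KITLG (0.70), 7.5% of the 40 against 1.77% of all genes. Among the epithelial markers it was so for 5 of the 12 tested, RDH5 (2.06), STRA6 (1.75), LRAT (1.80), RPE65 (2.38) and TTR (2.15). None of these genes passed after adjustment.

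**Figure D3:**
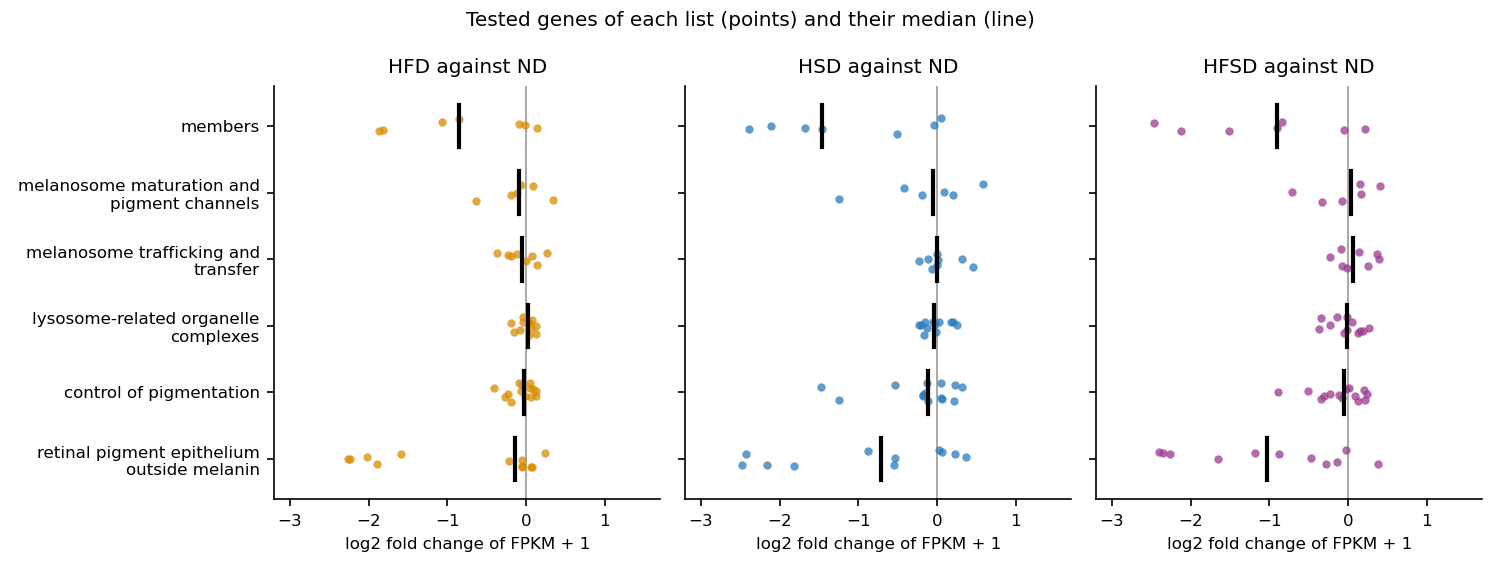
Log2 fold change of FPKM + 1 against ND for each tested gene (points) of the 10 melanin and melanosome genes, of 4 further pigment lists and of the pigment epithelium markers outside melanin, with the median of each list as a line. The medians of the pigment lists are near 0 in each diet, those of the members are −0.86, −1.47 and −0.90, and those of the epithelial markers are −0.14, −0.72 and −1.03.

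Markers of the retinal pigment epithelium outside melanin were set beside the members. Of 17 listed, 15 were found and 12 tested, and 5 (HFD), 6 (HSD) and 7 (HFSD) were lower before adjustment, against 2.51%, 4.51% and 4.37% of all genes tested, with none higher and none past the adjusted threshold. RPE65 was at 119 and 74.6 FPKM in ND and at 10.1 to 34.8 FPKM in the other retinas. TTR, a carrier of thyroid hormone and retinol, was at 144 and 88.6 FPKM in ND against 4.52 to 26.9 FPKM. RDH5, LRAT and STRA6, which oxidise, esterify and take up retinol, had 13.5 to 14.8, 3.13 to 9.29 and 3.57 to 3.97 FPKM in ND against 0.956 to 3.21, 0.155 to 0.749 and 0.237 to 0.864 FPKM.

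These 5 markers had no overlap between ND and the other retinas. Of the 15 found, 6 lay lower in all 6 retinas of the enriched diets than in both ND retinas, against 2.79% of all genes above 0, the other being KRT8, a keratin of epithelia, at 0.849 and 1.64 FPKM in ND and at most 0.665 FPKM elsewhere. RDH5 had log2 fold changes of −2.02, −2.43 and −2.40 with a standard error of 0.320 (limma, adjusted p=0.505, 0.0906 and 0.103), of the size found for TYRP1 and PMEL. RLBP1, a carrier of retinoids that Müller glia also make, was lower before adjustment in HSD (−0.88) and HFSD (−1.18, limma, adjusted p=0.589 and 0.410). RGR, an opsin of the epithelium and Müller glia, was lower before adjustment in HFSD (−0.88, limma, adjusted p=0.564). In HFD both overlapped with ND, RLBP1 at 229 and 186 FPKM against 150 and 305 FPKM. MERTK, the receptor for engulfing outer segments, did not share this pattern, at 5.00 and 10.6 FPKM in ND and 6.53 to 11.2 FPKM in the others, and neither did SULF1, SERPINF1 and ENPP2, which overlapped with ND in each diet except for ENPP2 in HSD and HFSD and SERPINF1 in HFSD. TRPM3, a cation channel, ran the other way in the diets with sucrose, at 10.6 to 11.1 FPKM against 7.20 and 9.29 FPKM in ND (0.37 in both, limma, adjusted p=0.725 and 0.628). BEST1 was at 1.16 FPKM or less in every retina. The summed level of the 15 markers was 626 and 757 FPKM (ND), 493 and 489 FPKM (HFD), 338 and 294 FPKM (HSD) and 292 and 240 FPKM (HFSD). The part of these cells in the results for the melanin genes was not tested.

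**Figure D4:**
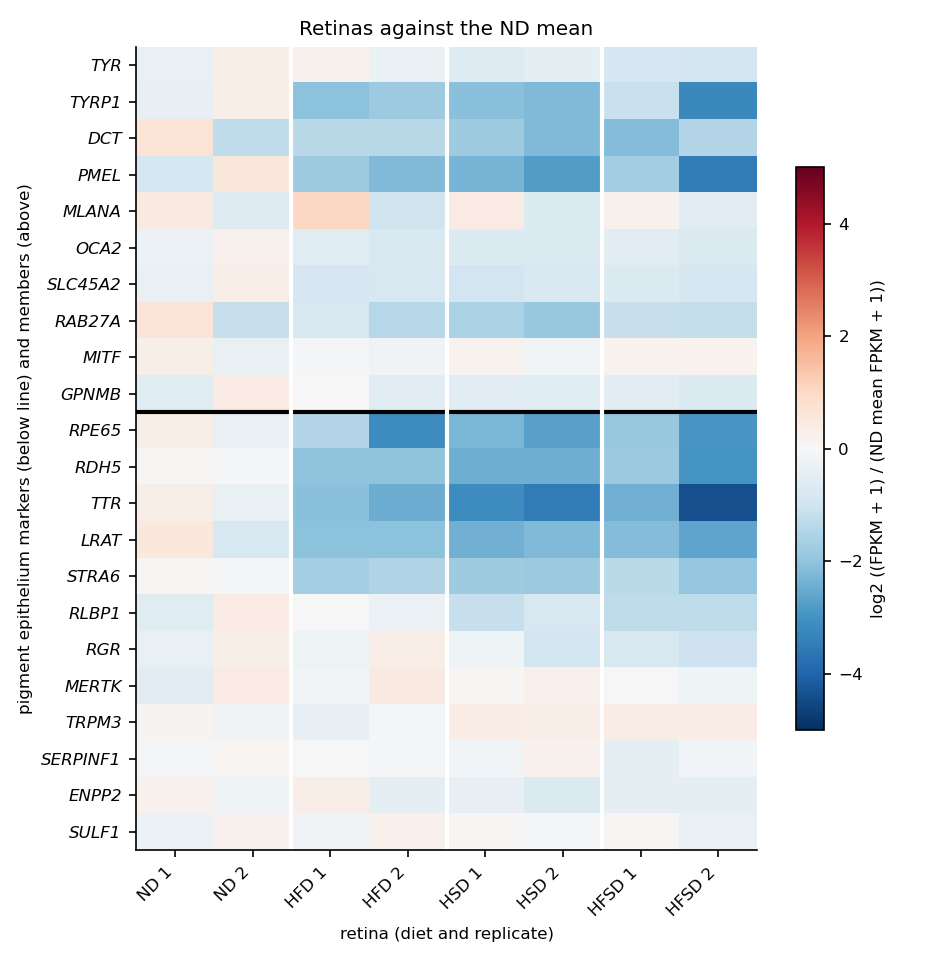
Colour map of log2((FPKM + 1) / (mean ND FPKM + 1)) for each retina (columns) in the 10 melanin and melanosome genes (above the line) and in the 12 tested markers of the pigment epithelium outside melanin (below it); blue is lower and red higher than the ND mean. RPE65, RDH5, TTR, LRAT and STRA6 are blue in the same 6 columns as TYRP1 and PMEL, while TYR, MLANA and MITF are paler.

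Members were also set against RPE65 within each retina. The ratio of TYRP1 to RPE65 was 0.112 and 0.311 in ND and 0.0875 to 0.449 in the other retinas, and that of PMEL was 0.0953 and 0.428 against 0.0814 to 0.391. Ratios of DCT, OCA2, SLC45A2, RAB27A and GPNMB overlapped likewise. For TYR, MLANA and MITF every retina of the enriched diets was above both ND retinas, as it was for 95.4% of all genes tested. RPE65 itself separated the groups, so a gene at a constant level does so on this scale too, and nothing particular to these 3 genes follows.

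The members were then set against the summed level of the 15 listed markers. RGR and RLBP1, which Müller glia also make, held 45.6% and 68.5% of that sum in ND and 66.3% to 82.5% in the others, so it is not a measure of the epithelium alone. TYR, MLANA, MITF, DCT, RAB27A and GPNMB overlapped with ND on this scale. OCA2 and SLC45A2, which rest on few fragments, were below both ND retinas in all 6 other retinas. OCA2 was at 0.000734 and 0.00142 in ND and at most 0.000632 elsewhere, and SLC45A2 at 0.000946 and 0.00194 against at most 0.000783. The share of all genes with this order on this scale is not given. TYRP1 and PMEL were below both ND retinas in 5 of the 6 other retinas, the exception being replicate 1 of HFSD. TYRP1 was at 0.0214 and 0.0306 in ND and 0.0269 in that retina, with 0.00441 to 0.0106 in the other 5. PMEL was at 0.0181 and 0.0421 in ND and 0.0196 in that retina, with 0.00410 to 0.0115 in the other 5.

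The genes most like the members were found by the Pearson r, over the 8 retinas, between log2(FPKM + 1) of each tested gene and the mean z-score of the 7 tested members. The 10 highest with a symbol were PIGK (r=0.96), ACOT9, TMEM51, RPE65 (0.95), CLCN2, EZH1, SDHAF1, TRADD, SLC22A5 and LMNA (0.92). RPE65 ranked 5 among all genes tested and TTR ranked 19, while the members that make up the score ranked from 25 (RAB27A) to 4292 (MITF, r=0.20), with DCT at 117, PMEL at 284, TYRP1 at 349, MLANA at 1095 and TYR at 1898. The mean z-score was highest in ND replicate 1, at 1.18, and was 0.39 in ND replicate 2 and 0.35 in HFD replicate 1, so on this score the second ND retina was near a retina of an enriched diet. The points share library and tissue composition, and likeness over 8 retinas is given without a test.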

How the data were processed

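RNA from 8 dissected rabbit retinas, 2 per diet, was extracted with TRIzol and sequenced on an Illumina HiSeq instrument. Gene-level FPKM was calculated by the authors in R from TopHat2 alignments that had a single position and no more than 2 mismatches. FastQC and trimming of read starts came first. The deposited values are FPKM, although the table is named as counts. The genome build, annotation and tool versions are not given in the sources used here.

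Whole fragments were recovered from the FPKM steps: with 1 depth per library and 1 length per gene, 100% of values came out whole within 0.02 fragments. They served for depth, Poisson intervals and voom only.

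Groups came from the sample titles. limma 3.58.1 in R 4.3.3 was fitted on log2(FPKM + 1) with a trended prior, 1 model over all 8 libraries with diet as the only term, for the 12204 protein-coding genes that reached 1 FPKM in 2 or more libraries. Fold changes on this scale are smaller than the true ones for low genes. A call was a two-sided Benjamini-Hochberg adjusted p under 0.05. The study's fold rule, means of FPKM plus 1 with limits of 0.65 and 1.54, was given without a test. Alternatives were a pseudocount of 0.1, no filter, libraries rescaled to a median log-ratio of 0, voom, a replicate block and each library left out.

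The 10 genes, the lists of pathway genes and markers and the tests were chosen with earlier results of these data known. All 10 genes were named. Other list genes were given as counts, with values where an adjusted p or an unadjusted p was under 0.05 against ND. For pathway genes this held in the other comparisons too, and values were also given where a defining marker was near 0. SAG, VWF, SLC24A5, MYRIP, MYO7A, MERTK, TRPM3, KRT8, SULF1, SERPINF1 and ENPP2 were added after their values were seen. So were KIT, the choroid markers besides DCN and the marker sums. Listed genes without a symbol in the table, GPR143 and RAB38 among them, were not analysed here. No sequences were printed.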

Additional observations from a re-analysis of the deposited data

How the results depend on the processing

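Of the counts and medians over the members, 162 of 170 values under the alternatives stayed within 1.5 times (counts) or within the spread between retinas (medians), but most are counts of 0 after adjustment or come from fits that leave the estimate as it is. Of 267 fold changes of single genes that an alternative did move, 243 kept their direction, 65 of these with a change in size of over 1.5 times, and 24 turned. Among those that did not turn, DCT in HFD ran from −2.04 to −0.11 and RAB27A in HFSD from −1.79 to −0.013 with single retinas left out. After adjustment, 0 members passed in the comparisons against ND under every alternative except 1: without replicate 1 of HFSD, TYRP1 passed for the 3 diets together, so that leaving out single retinas gave 0 to 1. The count of members below the fold limit was 4 to 7 in HFD, 4 to 7 in HSD and 4 to 8 in HFSD with single retinas left out. The count of members with ND above all other retinas stayed at 5 without any 1 retina of the enriched diets. It was 7 without either ND retina. The remaining ND retina alone then sets the order, which is an easier condition, so 7 is not comparable with 5. With single retinas left out, the median log2 fold change of the tested members ranged from −1.11 to −0.11 in HFD, −1.68 to −0.71 in HSD and −1.75 to −0.54 in HFSD. Under the other alternatives it ran from −1.22 to −0.72 in HFD and from −1.23 to −0.80 in HFSD. In HSD it was −2.36 with a pseudocount of 0.1, −2.37 with voom and −0.76 with no filter, where the 3 low members enter the median. Among single genes, leaving out 1 retina turned the sign of RAB27A in HFD (−1.75 to 0.032), TYR in HFD (−0.37 to 0.33), MLANA in HFD (−0.87 to 1.14), HSD (−0.60 to 0.52), HFSD (−0.61 to 0.50) and the 3 diets together (−0.54 to 0.57), and MITF in the same 4 comparisons (−0.41 to 0.22, −0.26 to 0.37, −0.11 to 0.53 and −0.26 to 0.37). For HFSD against HSD it turned that of TYRP1 (−1.07 to 1.04) and PMEL (−0.96 to 0.81). With voom MLANA in HFSD was 0.040 and TYRP1 for HFSD against HSD 0.018. The cause was not tested.

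Correlations between same-numbered retinas of different diets, over all genes tested, ran from −0.165 to 0.0813. The replicate numbers of the labels thus did not pair the retinas over all genes. These correlations cannot show whether a part of the genes follows the number, and MLANA, RAB27A, RPE65 and TTR were higher in replicate 1 of each diet. A replicate block gave 0 members called in each comparison and 2, 4 and 4 members lower than ND before adjustment for HFD, HSD and HFSD. It narrowed the 95% intervals of MLANA to −0.59 to 0.86 (HFD), −0.77 to 0.69 (HSD) and −0.78 to 0.67 (HFSD). The interaction had 0 members before adjustment, 1 with the block, 2 with no filter and 0 to 2 with single retinas left out. Precision was limited by 2 retinas per diet and, for OCA2, SLC45A2 and RAB27A, by few fragments.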
